A study of Mus musculus with 6 samples.

Results

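Amino acids, glucose and carboxylates such as lactate and citrate cross the plasma membrane through solute carriers, a large class of transport proteins whose genes are named Slc followed by a family number. This account follows 11 of these families in lung cells after silica: Slc1, Slc3, Slc6, Slc7, Slc36, Slc38 and Slc43 for amino acids and their relatives, Slc2 and Slc5 for sugars, and Slc5, Slc13 and Slc16 for carboxylates. Genes were chosen by symbol alone, as all genes of these families without Slc2a1 and Slc7a11. The RefSeq gene set held 111 of them, 106 had a probe on the array, and 82 were read above background on at least 2 of 6 arrays, out of 16440 genes tested and 20887 with a probe. Of the 82, 74 were above background on all 6 arrays, and 2 (Slc7a6os and Slc2a4rg-ps) share the prefix without encoding a carrier. Slc2a7, Slc3a1, Slc6a15, Slc6a17 and Slc6a19 entered on exactly 2 arrays. Slc2a5, Slc38a8, Slc5a2, Slc5a7, Slc5a8 and Slc6a3 were above background on 1 array and stayed out, and the other 18 genes with a probe on none.

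The cells were the CD45-negative fraction of mouse lung, which is meant to hold epithelium, endothelium and mesenchyme without leukocytes. They came from Ccr2KO mice (strain B6.129S4-Ccr2tm1Ifc/J, a targeted disruption of the chemokine receptor gene Ccr2 carried in every cell) and from WT mice (C57BL/6J), all aged 7 to 9 weeks at the start. Each strain gave 1 RNA at day 28 after silica aspiration, 1 at day 40 and 1 without treatment (day 0), each pooled from 3 biological replicates and read on 1 one-colour Agilent array, so no group had a replicate. Silica particles in the lung cause silicosis, a chronic inflammation with scarring, and CCR2 draws monocytes out of the blood. The p-values below rest on the scatter around an additive model of day and genotype, with 2 degrees of freedom, and do not carry the spread between mice. Only the difference of silica responses between genotypes used another model, genotype by silica. There days 28 and 40 stood as the 2 silica arrays of a genotype, although they are not replicates. The change between them counts as scatter. In mixed cells such as these, fewer cells of a type and less RNA per cell cannot be told apart.

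Amino acid carriers work in a few modes. Sodium-coupled carriers of Slc1, Slc6 and Slc38 load cells against a gradient that the sodium pump maintains, whereas the Slc7 exchangers, most of them bound to a heavy chain of Slc3, trade one amino acid for another. Glucose enters through the Slc2 facilitators or with sodium through Slc5, and glycolytic cells release lactate with a proton through Slc16. In lung, the serotonin carrier Slc6a4 and the noradrenaline carrier Slc6a2 clear amines from blood at the endothelium, and Slc6a14 takes up amino acids and related compounds at the epithelial surface.

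The labelled cell type was checked against marker genes. Levels here and below are log2 signals minus the 75th percentile of their array. Fibroblast markers averaged 5.30 to 5.65 on the 4 silica arrays and 5.03 to 5.31 on the 2 untreated arrays, and type 2 alveolar markers 5.21 to 5.57 and 5.99 to 6.15. Leukocyte RNA was present: the 5 pan-leukocyte markers averaged 3.31 (day 28) and 0.72 (day 40) on the Ccr2KO silica arrays and 3.76 and 1.30 on the WT silica arrays, against 1.42 (Ccr2KO) and 2.41 (WT) untreated. The targeted gene Ccr2 read -1.51 and -3.64 (days 28 and 40) and -5.07 (untreated) in Ccr2KO cells, against 1.38, -1.70 and 0.09 in WT cells, lower in Ccr2KO on each day. Whether its probe lies inside the disrupted sequence is not known here. The 75th percentile of the signal was 793 to 1179 units per array, and 58.2 to 64.4% of probes were well above background. All arrays lay on 1 slide, with Ccr2KO day 28 and both untreated arrays in row 1 and the other 3 in row 2.

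After silica, 29 of the 82 genes changed, 12 of them upward and 17 downward (limma, adjusted p below 0.05 over 16440 genes; 4 silica arrays against 2 untreated arrays). That was 35.4% of the family genes, against 19.8% of all genes; by direction, 14.6% rose against a background of 10.5%, and 20.7% fell against 9.28%. A further 19 had an unadjusted p below 0.05, making 48 in all (58.5%, against 37.5% of all genes). Changes of at least 2-fold were made by 6 genes upward (7.32%, background 5.88%) and 9 downward (11%, background 3.42%). The median response of the 82 was 0.16 on the log2 scale, against -0.01 for all genes. For 17 of the 29, the 4 silica arrays lay below both untreated arrays, for 9 above both, and for 3 the groups overlapped. Over all 82 genes, 23 lay below (28%, background 24%) and 18 above (22%, background 21.1%). The 17 falls and the 9 of at least 2-fold include Slc6a15, which entered the measured genes only through the untreated arrays, where it was high. The 23 and the 48 include Slc6a15 and also Slc3a1, which entered in the same way. The 48 also include Slc6a19, which entered only through silica arrays. For these genes the direction was largely set by the filter. Among the 74 genes above background on all 6 arrays, 11 rose and 16 fell by these calls. Refitted on such genes alone, 18 rose and 17 fell, with 3750 of 14936 genes called. An intensity trend with a robust prior gave 18 up and 19 down over the 82, with 4298 of 16440 genes called. With normexp background correction the split over the 82 was 20 up and 18 down, with 4360 of all genes called, against 3249 in the main fit. Falls did not outnumber rises in every fit.

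Leaving out each array in turn kept the sign of the 29, which these same arrays chose, but not all calls: 14 were called without Ccr2KO day 40, 13 without Ccr2KO untreated, 16 without WT day 40, 18 without WT untreated and 0 without either day 28 array. With the slide row as a block 0 were called. Both untreated arrays lay in row 1 and every silica array but Ccr2KO day 28 in row 2, so that fit could hardly separate row from silica. Within row 1 alone, Ccr2KO day 28 minus Ccr2KO untreated lay between -3.80 and 2.37 for the 29; both arrays also entered the fit that chose them, so their sign there is no separate evidence.

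**Figure D1:**
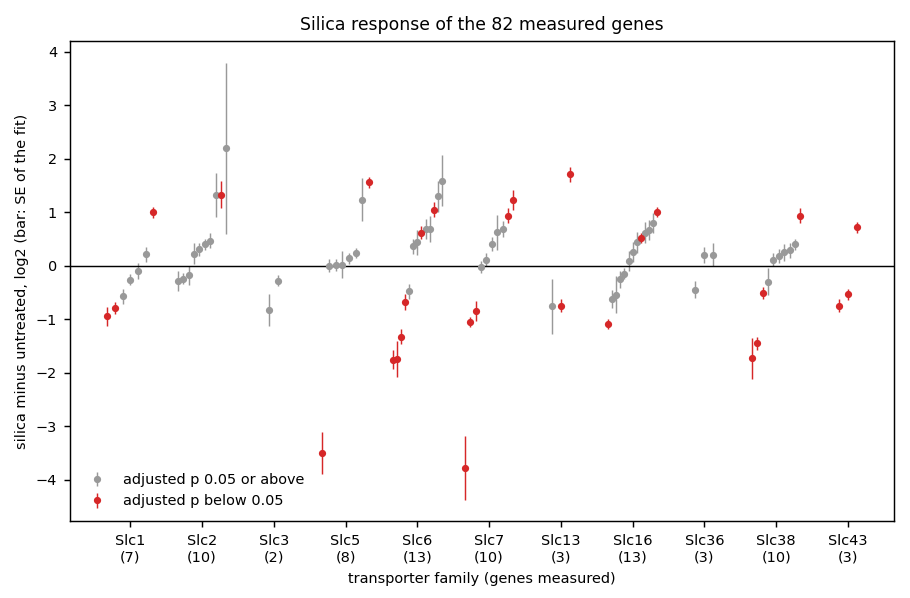
Silica response (mean of the 4 silica arrays minus mean of the 2 untreated arrays, log2) of the 82 measured genes, by family along the horizontal axis with the number of genes measured. Points are genes, bars the standard error of the fit, and red marks the 29 with an adjusted p below 0.05; Slc7a10 and Slc5a12 lie lowest, at -3.78 and -3.50, and Slc2a7 has the widest bar, 1.60.

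Among the heteromeric exchangers and their heavy chains (Slc3, Slc7), 7 were measured, of which 1 rose, 1 fell and 5 did not pass. The one that fell had the largest decrease of all 82. Slc7a10 encodes Asc-1, an exchanger of small neutral amino acids such as serine, glycine and alanine that is known from brain and from white fat cells. It read -1.59 and -4.01 in Ccr2KO cells at days 28 and 40 and -0.42 and -1.31 in WT cells at the same days, against 1.98 (Ccr2KO) and 1.91 (WT) untreated. All silica arrays lay below both untreated arrays, with Ccr2KO day 40 lowest. It fell by 3.78 ± 0.59 on the log2 scale (SE, adjusted p = 0.0242). Without the Ccr2KO untreated array it was -2.78, and without the WT untreated array -4.78. Fat cell markers are given because Slc7a10 is known from fat cells: of 5 listed, 3 were measured, averaging -2.79 to -0.80 on silica arrays and -3.73 and -2.01 on untreated arrays. Fabp4 rose by 2.03, and Adipoq was above background on 3 silica arrays and no untreated one. It was nominally 4.43-fold higher, with WT day 40 taken as read below background. Cidec, above background on 4 arrays, read -4.74, -3.21 and -5.81 in Ccr2KO cells (day 28, day 40, untreated), against -3.89, -6.95 and -0.69 in WT cells, and did not pass. Their part in the fall of Slc7a10 was not tested.

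Slc7a6 (y+LAT2, which exchanges cationic against neutral amino acids) rose by 0.93 ± 0.14 (adjusted p = 0.0217), at -0.70 to -0.45 on the silica arrays against -1.31 (Ccr2KO) and -1.80 (WT) untreated. The heavy chain gene Slc3a2 (CD98) did not pass at -0.28 ± 0.11 (adjusted p = 0.15). Slc3a1, the other heavy chain, was above background only on the 2 untreated arrays and was at least 1.77-fold lower after silica, without passing (adjusted p = 0.13).

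Slc7a5 encodes LAT1, the main carrier of large neutral amino acids into growing cells, and its 2 probes gave different answers. The brighter probe, used here by rule, read -1.58 and -1.54 (Ccr2KO, days 28 and 40) and -1.55 and -1.42 (WT), against -1.67 (Ccr2KO) and -1.34 (WT) untreated, a difference of -0.02 ± 0.11 (adjusted p = 0.908). The second probe read -1.55, -1.70, -1.43 and -1.96 on the same silica arrays, against -2.76 (Ccr2KO) and -3.36 (WT) untreated. By that probe all 4 silica arrays lay above both untreated arrays, by 1.40 ± 0.18 (adjusted p = 0.0173 over 21611 probes). The array annotation gives both probes the same RefSeq transcript. The mean of both gave 0.69, and no direction for Slc7a5 is drawn from these arrays.

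**Figure D2:**
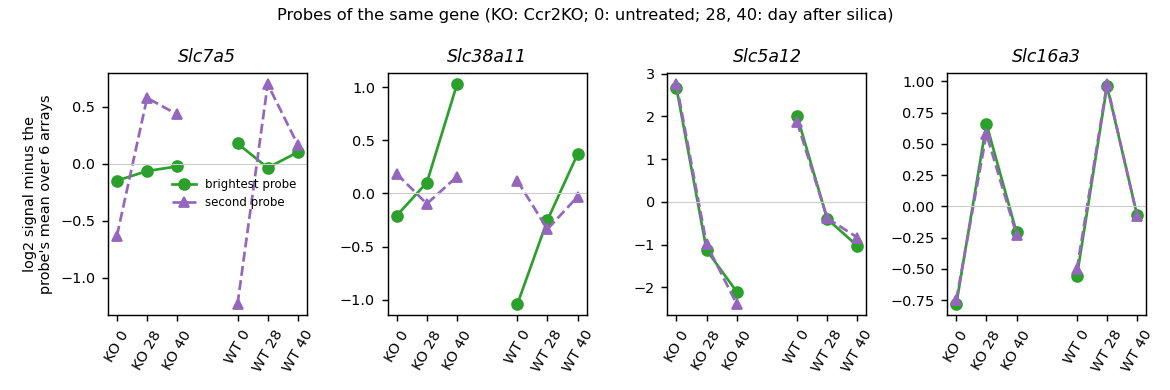
Log2 signal of the brightest and the second probe of 4 genes on each array, each probe minus its own mean over the 6 arrays, with Ccr2KO arrays left of WT arrays. The 2 probes run together for Slc5a12 (silica responses -3.50 and -3.46) and Slc16a3, and apart for Slc7a5 (-0.02 and 1.40) and Slc38a11 (0.94 and -0.23).

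Of the 4 cationic carriers of Slc7 measured, 1 rose, 2 fell and 1 did not pass. Slc7a2, the arginine carrier CAT2 that macrophages and other cells induce in inflammation, read -2.01 and -1.50 (Ccr2KO, days 28 and 40) and -2.64 and -2.29 (WT), against -3.29 (Ccr2KO) and -3.38 (WT) untreated. Each silica array lay above both untreated arrays, a rise of 1.23 ± 0.18 (adjusted p = 0.0214). Slc7a1 (CAT1), the constitutive arginine carrier, was 0.40 ± 0.13 higher and did not pass (adjusted p = 0.106). Slc7a4, a relative for which transport has been hard to show, fell by 1.05 ± 0.09 (adjusted p = 0.00953). Slc7a3 (CAT3) fell by 0.84 ± 0.19 with the highest adjusted p of the 29 (0.0497; normexp gave -0.54).

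All 3 carriers of Slc43 passed. Slc43a1 (LAT3), for large neutral amino acids, rose by 0.72 ± 0.10 (adjusted p = 0.0192), whereas Slc43a2 (LAT4), with a similar range of substrates, fell by 0.53 ± 0.11 (adjusted p = 0.0386). Slc43a3, a purine nucleobase carrier abundant in endothelium, fell by 0.75 ± 0.12 (adjusted p = 0.0257), at 4.69 to 5.07 on silica arrays against 5.71 (Ccr2KO) and 5.57 (WT) untreated.

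The sodium-coupled neutral carriers of Slc38 counted 10, with 1 up and 3 down. Slc38a5 (SNAT5), a glutamine, asparagine and serine carrier, fell by 1.73 ± 0.38 (adjusted p = 0.0471). Its levels were 2.30 and 1.92 (Ccr2KO, days 28 and 40) and 3.35 and 2.71 (WT), against 4.59 (Ccr2KO) and 4.02 (WT) untreated. The silica arrays all lay below the untreated ones, by a wider gap in Ccr2KO (-2.28 and -2.66) than in WT (-0.67 and -1.31), although the difference of responses had an adjusted p of 1. Without the Ccr2KO untreated array the change was -0.99 and no longer passed (adjusted p = 0.0513). Slc38a4 (SNAT4), known from liver and placenta, fell by 1.45 ± 0.12 (adjusted p = 0.00901).

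Slc38a9, the lysosomal carrier that reports arginine to the growth regulator mTORC1, fell by 0.51 ± 0.10 (adjusted p = 0.0414). Of its other probes, one gave -0.81 and one -0.04. Slc38a11, whose substrates are poorly known, rose by 0.94 ± 0.14 on its brightest probe (adjusted p = 0.0213; normexp gave 0.52), and its second probe gave -0.23 without passing. Slc38a2 (SNAT2), the carrier that amino acid shortage induces, stood at 3.82 to 4.36 on silica arrays against 3.997 (Ccr2KO) and 3.81 (WT) untreated, a difference of 0.18 ± 0.13 that did not pass. Slc38a1 (SNAT1), a glutamine carrier, was at 0.28 ± 0.13 and did not pass for silica as a whole.

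In Slc1, the glutamate and neutral amino acid carriers, 7 were measured, 1 rose and 2 fell. Slc1a3 (GLAST) fell by 0.95 ± 0.18 (adjusted p = 0.0371) and Slc1a2 (GLT-1) by 0.79 ± 0.11 (adjusted p = 0.0183), both known as the glial glutamate carriers of the brain. With normexp background correction Slc1a2 gave -0.28 and did not pass (adjusted p = 0.0723). Slc1a6 (EAAT4), the glutamate carrier of Purkinje cells, rose by 0.999 ± 0.10 (adjusted p = 0.0117), its silica arrays (-2.76 to -1.39) overlapping the Ccr2KO untreated array (-2.69) but not the WT one (-3.42). Slc1a5 (ASCT2), the glutamine exchanger of dividing cells, did not pass at -0.26 ± 0.10 (adjusted p = 0.14).

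Of the 5 amino acid carriers of Slc6, 2 fell and none rose past the threshold. Slc6a14 read -1.22 and -1.34 (Ccr2KO, days 28 and 40) and -1.21 and -1.11 (WT), against 0.25 (Ccr2KO) and -0.04 (WT) untreated. The silica arrays stayed within a narrow range below both untreated arrays, and the gene fell by 1.33 ± 0.14 (adjusted p = 0.0128). Type 2 alveolar markers moved the same way, with 6 of 7 down and Sftpc, the surfactant gene, at 0.11; type 1 markers fell for 5 of 6, averaging 3.47 to 3.83 on silica arrays and 5.19 and 4.78 untreated. Their part in the result was not tested.

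Slc6a15 (B0AT2), a branched-chain amino acid carrier known from brain, was above background only on the untreated arrays and was at least 3.34-fold lower after silica (adjusted p = 0.0368); normexp gave -0.25 with an adjusted p of 0.14. Because Slc6a15 entered the measured genes only through the arrays where it was high, its call is given as a description. Slc6a20a, the proline carrier, was 0.69 ± 0.24 higher without passing. Slc6a19 (B0AT1, the intestinal and renal neutral amino acid carrier) and Slc6a17 (a vesicular carrier known from neurons) were above background only on silica arrays, 2 each, nominally 2.97-fold and 1.35-fold higher, and neither passed. Their other silica arrays entered these folds as read below background. None of the 3 proton-coupled Slc36 carriers passed.

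The carriers of monoamines, GABA, glycine, taurine, creatine and betaine (Slc6) numbered 8, with 2 up and 2 down. Both amine carriers that were measured fell. Slc6a4, the serotonin carrier of lung endothelium and platelets, read -3.91 and -3.53 (Ccr2KO, days 28 and 40) and -3.77 and -3.66 (WT), against -2.26 (Ccr2KO) and -1.67 (WT) untreated, and it fell by 1.76 ± 0.18 (adjusted p = 0.0117; normexp gave -1.02). The 4 silica arrays lay within 0.4 of each other. Slc6a2, the noradrenaline carrier, fell by 0.68 ± 0.15 (adjusted p = 0.0484).

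Platelet markers fell too, 4 of 4, averaging -1.80 to -0.67 on silica arrays and 1.29 on each untreated array. General endothelial markers fell for 2 of 4 (averages 4.56 to 5.13 on silica arrays, 5.12 and 5.11 untreated) and alveolar capillary markers for 2 of 4 (2.25 to 2.82, against 3.94 and 3.50). Erythroid markers fell for 3 of 4 and averaged -1.90 to 0.44 on silica arrays and 1.17 and 0.99 untreated; in mice Slc38a5 is known from red cell precursors. How far these lists account for Slc6a4, Slc6a2 or Slc38a5 was not tested.

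Slc6a13 (GAT2), a GABA and taurine carrier of liver, kidney and brain coverings, rose by 1.05 ± 0.14 (adjusted p = 0.0192), but only the day 28 arrays stood apart, as described below for day 40. Slc6a6 (TauT), the taurine carrier, was 0.69 ± 0.19 higher with every silica array above both untreated arrays and did not pass (adjusted p = 0.0779).

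**Figure D3:**
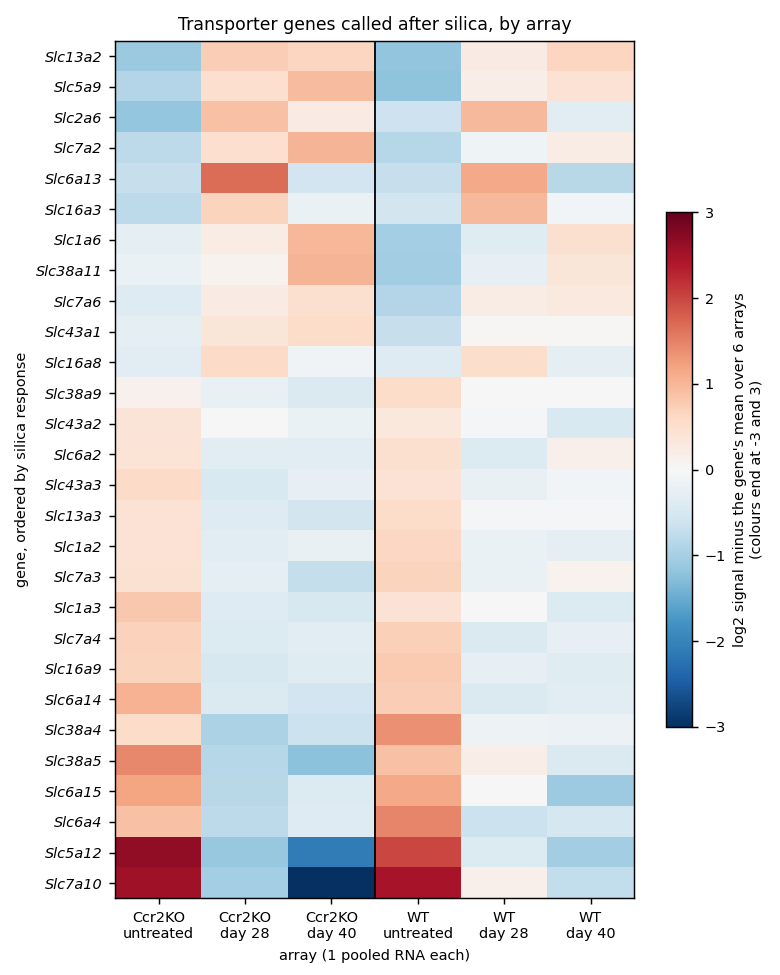
Log2 signal of 28 of the 29 genes with an adjusted p below 0.05 for silica, each minus its mean over 6 arrays, with genes down the page from the largest rise (Slc13a2, 1.71) to the largest fall (Slc7a10, -3.78). Ccr2KO arrays are left of the black line and WT arrays right of it; day 28 stands above day 40 in both genotypes for Slc6a13, Slc16a3, Slc2a6 and Slc16a8.

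Of 9 glucose, fructose and inositol facilitators (Slc2), 1 rose, none fell past the threshold and 8 did not pass. Slc2a6 (GLUT6), an intracellular carrier known to be induced in activated macrophages, read 2.27 and 1.64 (Ccr2KO, days 28 and 40) and 2.37 and 1.07 (WT), against 0.24 (Ccr2KO) and 0.78 (WT) untreated. It was higher on all silica arrays, and the smallest step was WT day 40, at 0.29 over WT untreated. The rise was 1.33 ± 0.25 (adjusted p = 0.0351). Neutrophil markers rose for 3 of 4, averaging 1.90 to 5.16 on silica arrays and 2.30 and 1.68 untreated, and pan-leukocyte markers for 2 of 5. Macrophage markers rose for 1 of 4 measured, averaging 0.19 and -0.66 (Ccr2KO, days 28 and 40) and -0.30 and -1.82 (WT), against -2.15 (Ccr2KO) and -0.59 (WT) untreated. Basal cell markers rose for 3 of 4 (averages -0.30 to 1.53, against -1.97 and -1.72) and lymphatic markers for 3 of 4 (-1.78 to -0.95, against -2.23 and -2.26). The part of these lists in the rises of Slc2a6, Slc7a2 and Slc16a3 was not tested. Slc2a3 (GLUT3), a high-affinity glucose carrier of neurons and leukocytes, was at 0.40 ± 0.10 (adjusted p = 0.0692), and Slc2a4 (GLUT4), the insulin-regulated carrier of muscle and fat, at -0.18 ± 0.18. Slc2a7, a relative described in the intestine, was above background on 1 silica array of each genotype at different days (-3.60 at Ccr2KO day 40 and -3.60 at WT day 28). It was nominally 4.57-fold higher, with the other silica arrays taken as read below background, and not past the test (adjusted p = 0.375). Leaving out 1 array gave 0.73 to 3.65 on the log2 scale.

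Among 8 sodium-coupled carriers of Slc5, 1 rose and 1 fell. Slc5a9 (SGLT4), a mannose and glucose carrier, read -2.77 and -2.32 (Ccr2KO, days 28 and 40) and -3.07 and -2.83 (WT), against -4.14 (Ccr2KO) and -4.47 (WT) untreated. With every silica array above both untreated arrays and a rise of 1.56 ± 0.10, it had the smallest adjusted p of the 82 (0.00761); normexp gave 0.90. Slc5a12 (SMCT2), a low-affinity carrier of lactate and other monocarboxylates known from kidney and gut, went the other way: -2.77 and -3.74 (Ccr2KO, days 28 and 40) and -2.04 and -2.67 (WT), against 1.03 (Ccr2KO) and 0.38 (WT) untreated. It fell by 3.50 ± 0.40 (adjusted p = 0.0137), and a second probe gave -3.46.

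Both Slc13 carriers of citric acid cycle intermediates that were measured passed, in opposite directions. Slc13a2 (NaDC1), which takes up citrate and succinate in kidney and gut, read -1.24 and -1.34 (Ccr2KO, days 28 and 40) and -1.73 and -1.34 (WT), against -3.09 (Ccr2KO) and -3.16 (WT) untreated. This was the largest rise among the genes that passed, 1.71 ± 0.14 (adjusted p = 0.00915), with at least 1.42 in each silica array over its own untreated array. Slc13a3 (NaDC3), its high-affinity relative, fell by 0.75 ± 0.12 (adjusted p = 0.0267). Slc13a4, a sulfate carrier, did not pass.

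Of 13 Slc16 carriers, 2 rose, 1 fell and 10 did not pass. Slc16a3 (MCT4), the lactate exporter of glycolytic cells, read 3.31 and 2.44 (Ccr2KO, days 28 and 40) and 3.61 and 2.58 (WT), against 1.86 (Ccr2KO) and 2.09 (WT) untreated. All 4 silica arrays were higher, those of day 28 most, a rise of 1.01 ± 0.10 (adjusted p = 0.0108). Slc16a8 (MCT3), the lactate carrier of the retinal pigment epithelium, rose by 0.52 ± 0.10 (adjusted p = 0.0339; normexp gave 0.34). Slc16a9 (MCT9), linked to carnitine and creatine, fell by 1.09 ± 0.10 (adjusted p = 0.0104), with a second probe at -0.97. Slc16a1 (MCT1), the widespread lactate carrier, did not pass at 0.25 ± 0.19 (adjusted p = 0.388).

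**Figure D4:**
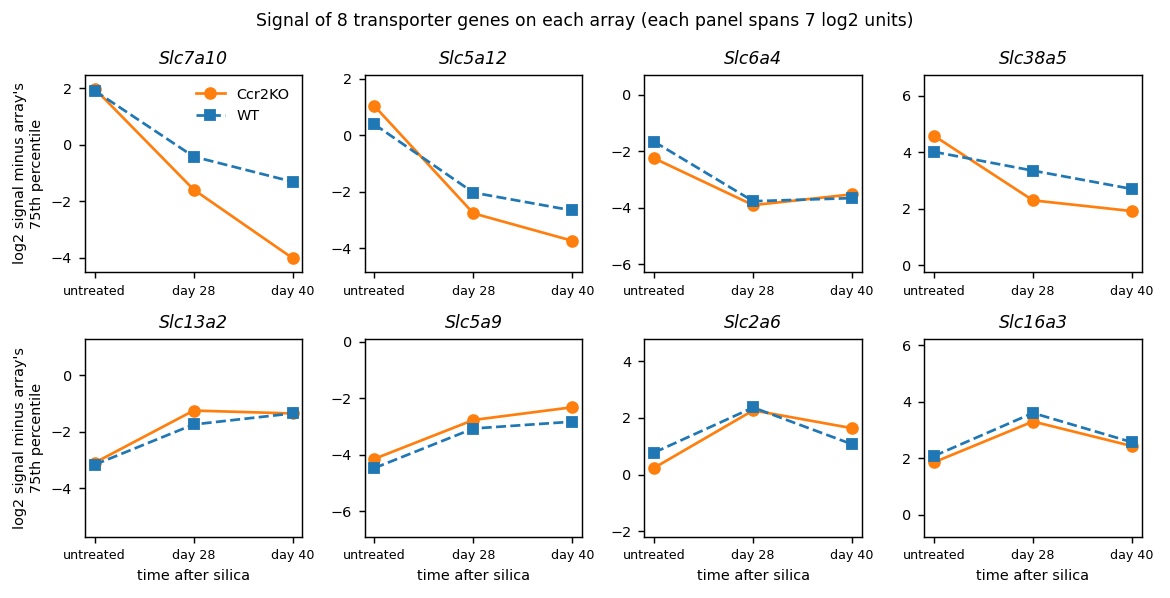
Log2 signal (array 75th percentile subtracted) of 8 genes in Ccr2KO (orange) and WT (blue) cells, untreated and at days 28 and 40 after silica; every panel spans 7 log2 units and each point is 1 array. The upper 4 genes were lower and the lower 4 higher on every silica array than on both untreated arrays.

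Promoter sequence was available in RefSeq for 58 of the 82 genes (78 windows from 250 bases before to 50 after a start site, build GRCm38.p6). The letters ACGTG, the core of the element bound by hypoxia-inducible factors, were searched on both strands and found in 25.6% of these windows, against 19.6% of all 32851 RefSeq windows. Among genes that rose, 6 of 12 windows, from 9 genes, held it (Slc16a3, Slc1a6, Slc43a1, Slc6a13 and Slc7a6). The 2 windows of Slc7a6 overlap and share a site, which is counted in both. Among genes that fell, 3 of 14 windows, from 11 genes, held it (Slc13a3, Slc1a3 and Slc38a5). TGATGNAA, a C/EBP-ATF element of amino acid response genes, was in 3.85% of the windows, against 3.97% of all, and in no window of a gene that changed. TGANTCA, the AP-1 element, was in 11.5% against 7.81%, among changed genes in Slc6a14 only. These are matches of letters and not tests of binding. The windows of both genes that rose after silica and were then lower at day 40 are shown with ACGTG in capitals, followed by that of Slc7a10, the gene with the largest fall, which holds none of the 3 motifs. All lie on the plus strand, Slc16a3 at chr11:120948817-120949116 with matches starting 27 and 14 bases before the start site, Slc6a13 at chr6:121300038-121300337 with a match 116 bases before it (its 2 other windows hold none), and Slc7a10 at chr7:35186135-35186434.
Slc16a3: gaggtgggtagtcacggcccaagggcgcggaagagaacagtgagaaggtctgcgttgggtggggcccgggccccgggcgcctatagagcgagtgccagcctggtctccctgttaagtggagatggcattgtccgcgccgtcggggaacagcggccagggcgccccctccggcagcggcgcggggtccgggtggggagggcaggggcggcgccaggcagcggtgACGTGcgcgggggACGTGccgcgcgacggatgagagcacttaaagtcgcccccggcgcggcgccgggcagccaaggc
Slc6a13: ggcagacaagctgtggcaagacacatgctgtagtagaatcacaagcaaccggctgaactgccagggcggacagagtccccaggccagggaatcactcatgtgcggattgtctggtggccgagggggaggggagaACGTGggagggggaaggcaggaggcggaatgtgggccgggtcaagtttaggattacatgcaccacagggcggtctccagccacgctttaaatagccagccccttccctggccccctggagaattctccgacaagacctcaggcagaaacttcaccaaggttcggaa
Slc7a10: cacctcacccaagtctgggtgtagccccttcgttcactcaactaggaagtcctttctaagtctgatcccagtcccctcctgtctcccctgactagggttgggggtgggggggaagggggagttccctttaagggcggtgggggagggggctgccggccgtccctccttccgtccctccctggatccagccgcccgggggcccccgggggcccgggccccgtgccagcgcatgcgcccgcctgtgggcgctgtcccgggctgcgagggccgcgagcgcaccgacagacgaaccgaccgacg

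Genes that use what these carriers bring in were read as lists. For arginine use and polyamine synthesis, 5 of 9 measured genes rose and none fell past the threshold (median 0.74, against -0.01 for all genes). They were the nitric oxide synthases Nos2 (1.42 ± 0.13, adjusted p = 0.0106) and Nos3 (1.09 ± 0.12), the arginase Arg2 (0.89 ± 0.16), the spermidine synthase Srm (0.74 ± 0.14) and the arginine-recycling enzyme Ass1 (0.71 ± 0.12). Arg1 was 1.05 ± 0.25 higher without passing (adjusted p = 0.0551). For serine, glycine and proline synthesis, 5 of 10 rose (median 0.34): Aldh18a1 (1.49 ± 0.12), the first enzyme of proline synthesis, and Mthfd2 (1.23 ± 0.10), Phgdh (0.91 ± 0.18), Psat1 (0.81 ± 0.09) and Shmt2 (0.47 ± 0.10) of the serine and one-carbon route.

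Among 16 genes of glucose use and lactate, 6 rose and 2 fell (median 0.16). Hexokinase 3 (Hk3, 1.63 ± 0.30), known from myeloid cells, Pfkl (0.85), Pkm (0.77), Pgk1 (0.75), Ldha (0.69) and Eno1 (0.69) rose, all of glycolysis or lactate formation. Hk3 was high mainly at day 28, at 0.39 (Ccr2KO) and 0.002 (WT). At day 40 it read -1.81 (Ccr2KO) and -1.86 (WT), against -2.90 (Ccr2KO) and -1.99 (WT) untreated. Ldhb (-0.59), the lactate-consuming form, and Txnip (-0.59), a brake on glucose uptake, fell. Of the glucose carrier Slc2a1, left out by the rule, the difference was 0.88 ± 0.11 (adjusted p = 0.0171), and of the cystine exchanger Slc7a11, also left out, 2.004 ± 0.24 (adjusted p = 0.0146).

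The other lists moved little. In the amino acid stress response 1 of 13 rose (Nupr1, 0.52) and 1 fell (Vldlr, -0.77), with its regulator Atf4 at -0.23 ± 0.13 (adjusted p = 0.254). For mTORC1 and its lysosomal sensing, 1 of 16 fell and none rose past the threshold; the 1 was Rragb, above background on both untreated arrays and 1 silica array (fitted difference -1.28, which rests on signals at background). Sodium pump subunits had 1 of 8 up (the regulator Fxyd5, 1.41 ± 0.16) and 2 down, among them Atp1b1 (-0.57). In glutamine and glutamate metabolism 1 of 8 rose (glutamine synthetase Glul, 0.52) and 1 fell (the alanine transaminase Gpt, -0.95). Of 6 chaperones and accessory proteins, 1 rose (Arl6ip5, 0.54).

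Between day 28 and day 40, 4 of the 82 genes fell and 0 rose (2 arrays against 2). Those 4.88% stand against 2.73% of all genes that changed, 2.52% falling and 0.201% rising; at an unadjusted p below 0.05, 18 of the 82 passed (22%, against 16.2%). Slc6a13 was at -4.59 (Ccr2KO) and -4.86 (WT) at day 40, against -2.35 and -2.89 at day 28. Both day 40 arrays were back near the untreated -4.72 of each genotype, so Slc6a13 fell by 2.10 ± 0.17 (adjusted p = 0.0165; -0.97 with normexp), and it was above background on 5 of 6 arrays.

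Slc2a3 read -0.50 (Ccr2KO) and -0.65 (WT) at day 40, against 0.94 and 0.83 at day 28, so it fell by 1.46 ± 0.12 (adjusted p = 0.0173). Its day 40 arrays also lay below the untreated ones (-0.28 in Ccr2KO, -0.20 in WT). Slc38a1 read 0.67 (Ccr2KO) and 0.77 (WT) at day 40, against 1.98 and 2.24 at day 28, so it fell by 1.39 ± 0.16 (adjusted p = 0.0341), with further probes at -1.43 and -1.87, neither of which passed. Slc16a3 fell by 0.95 ± 0.11 (adjusted p = 0.0376) and stayed above both untreated arrays. A second Slc16a3 probe gave -0.93 and did not pass (adjusted p = 0.0516 over 21611 probes). For the 4 genes the difference was of similar size in each genotype, from -2.23 to -0.87 in Ccr2KO and from -1.97 to -1.03 in WT.

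Leukocyte markers moved the same way between these arrays. All 5 pan-leukocyte markers fell (median -2.54), as did 4 of 4 neutrophil, 3 of 3 T cell and 2 of 3 B cell markers, and neutrophil markers averaged 2.79 (Ccr2KO) and 1.90 (WT) at day 40 against 5.16 and 4.38 at day 28. Slc7a11, left out by the rule, fell by 2.47 ± 0.27 (adjusted p = 0.0338). The part of leukocyte RNA in the 4 falls was not tested. For these 4 genes the slide row as a block and leaving out Ccr2KO day 28 gave the same values, so they make 1 check. With the slide row as a block, or without any one of the 4 silica arrays, 0 of the 4 passed, while their values stayed between -2.30 and -0.89; without either untreated array Slc16a3 also missed the threshold (adjusted p = 0.051).

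Among genes that did not pass, Slc6a19 read -4.75 (Ccr2KO) and -3.49 (WT) at day 40, against -7.11 and -7.70 at day 28, where it was not above background. It was at least 9.16-fold higher at day 40 (adjusted p = 0.0861), having entered the measured genes through the day 40 arrays. It is among the 18 with an unadjusted p below 0.05. Slc7a10 was lower in both genotypes (-1.66 ± 0.68, adjusted p = 0.349). The 2 genotypes, which share no array here, had the same sign for 55 of 82 genes (67.1%), against 67.8% of all genes. Among the lists of transport partners and metabolism, glutamine synthetase Glul passed and no other gene did, 0.94 ± 0.12 higher at day 40 (adjusted p = 0.0412).

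**Figure D5:**
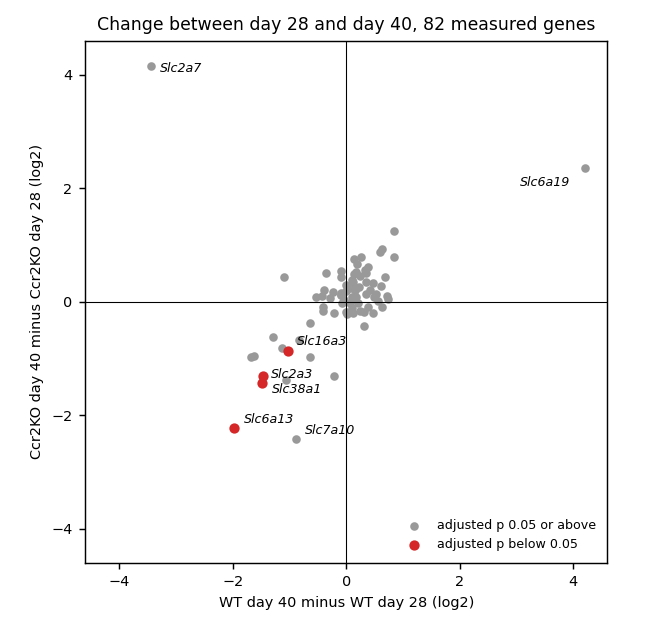
Difference between day 40 and day 28 (log2) of the 82 genes in Ccr2KO cells (vertical) and WT cells (horizontal), each from 1 array minus 1 array. Red marks the 4 genes with an adjusted p below 0.05, all lower at day 40 in both genotypes; Slc2a7 lies off on opposite sides (4.15 in Ccr2KO, -3.44 in WT).

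Ccr2KO against WT, over all days, gave 0 of 82 genes and 0% of all genes with an adjusted p below 0.05 in limma (3 arrays each). At an unadjusted p below 0.05 there were 12 (14.6%, against 9.28% of all genes). Ccr2KO was above WT on all 3 days for 20 genes (24.4%, background 19.6%) and below on all 3 for 9 (11%, background 13.3%). Of those with 1 sign on all 3 days and signal above background on all 6 arrays, the largest differences were in Slc38a4 (-0.69 ± 0.11), Slc38a11 (0.61 ± 0.13), Slc1a6 (0.61 ± 0.10) and Slc6a8, the creatine carrier (0.51 ± 0.14), with adjusted p from 0.381 to 0.475. Slc6a17, above background on 2 Ccr2KO arrays and no WT array, had a fitted difference of 0.77 ± 0.23 (adjusted p = 0.493). It is among the 12 and the 20, although it entered the measured genes only through those Ccr2KO arrays. Slc38a4 read -3.22, -2.93 and -1.72 in Ccr2KO cells (day 28, day 40, untreated), against -2.44, -2.45 and -0.90 in WT cells, lower after silica in both. Across the 82 genes, levels on Ccr2KO and WT arrays correlated (Pearson's r) at 0.978 (day 28), 0.970 (day 40) and 0.988 (untreated), as a description.

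The difference between the silica responses of Ccr2KO and WT gave 0 genes with an adjusted p below 0.05 in limma, among the 82 and among all genes (0%). Unadjusted, 5 of 82 had a p below 0.05 (6.1%, background 3.76%). For 6 genes (7.32%, background 8.75%) both silica arrays lay on opposite sides of their untreated array in the 2 genotypes. Another choice was made from all 82 genes. It took those whose Ccr2KO and WT responses did not overlap, with both silica arrays of the higher-responding genotype above background. Their 4 largest differences were in Slc7a10 (-2.004 ± 1.62), Slc13a4 (-1.93 ± 0.44), Slc2a2, the liver and islet glucose carrier (-1.59 ± 0.96, with WT untreated not above background), and Slc5a1, the intestinal glucose carrier SGLT1 (-1.59 ± 0.37). None of them passed. Slc5a1 read -3.40 and -3.31 in Ccr2KO cells after silica, against -3.79 in untreated Ccr2KO cells. In WT cells it read -3.38 and -2.89 after silica, against -5.16 untreated, so the genotypes stood apart mainly without silica.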

How the data were processed

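Per the file headers, the authors scanned Cy3 arrays (design 028005, mm9 annotation) on an Agilent G2600D scanner and extracted intensity with Feature Extraction 11.0.1.1 (protocol GE1_1100_Jul11); per the labels, 200 ng RNA was labelled. The deposited value table holds log2 values of the same intensity for 30574 probes (largest difference 5e-09), and the submitters' processing notes name R 2.15.1.

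From the deposited scanner intensity, control and outlier spots were left out, spots of a probe averaged, and log2 values lowered by the array's 75th percentile. Probes were named through RefSeq accessions (GRCm38.p6). Probes had to be well above background on 2 or more of the 6 arrays, and the brightest stood for its gene. limma 3.58.1 (R 4.3.3) fitted day and genotype (prior degrees of freedom 2.22) and, for the difference of responses, genotype by silica (1.87), with Benjamini-Hochberg adjustment over 16440 genes, and was tested on simulated data. "At least" sets a side without signal above background at the lowest signal above background or, if higher, its own. Folds called nominal were set likewise, but some arrays of the other side were below background and entered as read. These are not lower bounds.

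The genes, lists and tests were chosen with earlier results of these data known. Named genes are all that passed for silica, those that passed or the largest in other comparisons, those above background on 1 side only, and 20 chosen by function. The values of some genes that these choices name are not reported here. Slc2a12, Slc36a3os, Slc6a16, Slc6a19os and Slc6a5 were not matched to a probe. Figures used matplotlib.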

Additional observations from a re-analysis of the deposited data

Results flagged for a closer look

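For 6 of the 82 genes (7.32%, against 8.75% of all genes), both silica arrays of one genotype lay above their own untreated array and both of the other genotype below theirs. The interaction term did not pass for any of them (adjusted p of 1 each), and the smallest step of a silica array from its untreated array was below 0.1 in each of them. The planned flag asked for a larger step on every silica array, so none of the 6 met it, and they are listed by sign alone. Slc13a4, the sulfate carrier, had the largest difference of responses, -1.93 (unadjusted p = 0.0124): silica minus untreated was -1.97 and -1.47 in Ccr2KO cells (days 28 and 40) and 0.39 and 0.03 in WT cells. Slc38a6, a glutamine and glutamate carrier known from neurons, differed by 0.97 (unadjusted p = 0.027), with 0.28 and 0.09 in Ccr2KO cells and -0.67 and -0.89 in WT cells. The differences of the other 4 were -0.51 for the lysosomal carrier Slc36a1, -0.30 for Slc7a6os, 0.25 for Slc5a10 and 0.25 for the brighter probe of Slc7a5.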

How the results depend on the processing

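No paired analysis was possible because each group has 1 array and the labels carry no replicate numbers. For silica (3249 genes, 12 family genes up, 17 down), normexp (on median signals, since mean signals are not in the files) gave 4360 genes, 20 up and 18 down. Probes above background on all 6 arrays gave 3750 genes, 18 up and 17 down. An intensity trend with a robust prior gave 4298 genes, 18 up and 19 down. No filter gave 1877 genes and 9 down, and the slide row as a block gave 0 genes, 0 up and 0 down. Leaving out 1 array gave 0 to 1964 genes, 0 to 11 up and 0 to 11 down. For day 40 against day 28 (448 genes, 0 up, 4 down), normexp gave 701 genes and 2 up, the authors' deposited values 1 up, no filter 233 genes and 2 down, probes above background on all 6 arrays 1 up, an intensity trend with a robust prior 674 genes, the row block 0 genes and 0 down, and a second brightest probe, an alternative chosen after seeing the data, 2 down. Leaving out 1 array gave 0 to 685 genes, 0 up and 0 to 4 down. For Ccr2KO against WT, normexp, probes above background on all 6 arrays and the intensity trend each called 1 gene, none of them in these families; leaving out 1 array gave 0. The difference of responses called 0 genes in every fit that could be run; it was not run without either untreated array.

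Of the 29 genes called for silica, 27 were still called with normexp and 27 with quantile normalization, 27 of 27 with the authors' table, 17 without a filter and 26 with the mean of a gene's probes. Signs turned for Slc38a11 (-0.23) and Slc38a1 (-0.04) with the second brightest probe, for Slc2a7 with the row block (-2.19), and on leaving out 1 array for Slc16a1 (-0.01 to 0.51), Slc2a4 (-0.37 to 0.01) and Slc38a2 (0.00 to 0.37). Slc7a5 gave 0.69 with the mean of probes, 0.13 with the row block, -0.14 to 0.10 on leaving out 1 array (0.03 without WT day 28) and 1.40 with the second probe. The cause was not tested. With 6 arrays and 2 residual degrees of freedom, a gene that did not pass is not shown to be unaltered, and 8 of the 82 genes lay below background on at least 1 array.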
